A study of Homo sapiens with 18 samples.

Results

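The autophagy machinery was followed in 3 acute myeloid leukaemia lines given a short hairpin RNA against BCAT1, the cytosolic branched-chain amino acid transaminase. The set holds 40 genes of 20046 with a probe: the kinase complex that starts autophagy, the lipid kinase complex, the membrane-supply and lipid-transfer proteins, the enzymes that attach LC3-type proteins to lipid, the LC3 family, the cargo receptors and the factors of fusion with the lysosome. Members were taken by gene symbol, from a list chosen with earlier results of these data known. Each was read from its probe with the highest mean intensity over all arrays. All 40 had a probe. For 39 the brightest group exceeded the median probe value of 92.1, and these were among the 15288 genes tested. NBR1 was too dim.

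The 6 groups were HL-60, SKM1 and MOLM13 cells, each transduced with the hairpin shBCAT1 (shBCAT1-3 in the labels) or with the non-targeting hairpin shNT. Each group had 3 arrays of total RNA, 18 in all. Transduced cells were sorted after 48 h, HL-60 having been grown with 10% serum and SKM1 and MOLM13 with 20%. A single hairpin against BCAT1 was used, and the lines are established ones. Nothing in the labels says whether the numbered replicates were separate cultures, so p-values measure the spread between these arrays, which may be technical. Values are probe intensities on a linear scale, and differences are shBCAT1 minus shNT on the log2 scale, tested with limma with Benjamini-Hochberg adjustment over all genes tested at a threshold of 0.05.

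Autophagy encloses part of the cytoplasm in a double membrane and delivers it to the lysosome. The ULK1 kinase complex starts the process, the lipid kinase complex built on BECN1 marks the forming membrane with phosphatidylinositol 3-phosphate, WIPI proteins read that mark, and lipid-transfer proteins enlarge the membrane. A conjugation cascade resembling that of ubiquitin then fixes LC3 and GABARAP proteins to it, and receptors such as SQSTM1 bind both these proteins and ubiquitylated cargo. Autophagy supplies amino acids when they are scarce, and much of its machinery is also under transcriptional control, by TFEB and TFE3 and by FOXO3 among others. The arrays measured RNA, and neither protein nor the flow through the pathway.

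BCAT1 itself was lower with shBCAT1 by limma, with log2 differences of -3.34 ± 0.08 (SE) for HL-60, -3.27 ± 0.08 for SKM1 and -2.77 ± 0.08 for MOLM13, and the highest adjusted p was 1.64e-16. Its arrays read 135 to 164 with shBCAT1 and 1456 to 1476 with shNT in HL-60, 121 to 133 and 1207 to 1239 in SKM1, and 147 to 173 and 1022 to 1144 in MOLM13, and the hairpins did not overlap in any line. Array medians lay between 91.0 and 93.1, and within each group the arrays had correlations of at least 0.989 (Pearson's r across genes, which are not independent replicates). Of 6 measured myeloid markers, MPO, SPI1, CEBPA and LYZ were above the median of all probes in each line, while CD34 stayed near it and PTPRC had group means between 93.8 and 133. SPI1 and LYZ were called higher with shBCAT1 in HL-60 and PTPRC in SKM1, and MPO was called lower in SKM1 and MOLM13. The summed intensity of the 6 in SKM1 was 10518 to 11602 in shBCAT1 arrays and 22044 to 22890.0 in shNT arrays, and most of that gap was MPO, which averaged 2498 with shBCAT1 and 11689 with shNT (log2 difference -2.23 by limma, adjusted p = 7.64e-14). The sum was 19319 to 19874 with shBCAT1 and 17740.0 to 18777 with shNT in HL-60, and 18774 to 21264 with shBCAT1 and 15211 to 21774 with shNT in MOLM13. The marker calls are to be read against the shares of all genes tested. These were 10% higher and 8.87% lower in HL-60, 4.67% and 6.50% in SKM1, and 10.3% and 10.7% in MOLM13. Of 6 myeloid maturation markers, 3 were higher with shBCAT1 for HL-60, 3 for SKM1 and 4 for MOLM13, and none was lower. ITGAM and TYROBP were called in every line, FCER1G in HL-60 and SKM1, S100A8 and S100A9 in MOLM13 alone, and CD14 in none. Their summed intensity in HL-60 was 2205 to 2594 in shBCAT1 arrays and 883 to 1130 in shNT arrays. In SKM1 it was 23410.0 to 24525 with shBCAT1 and 19602 to 20770.0 with shNT, and in MOLM13 11406 to 12540.0 with shBCAT1 and 5855 to 8437 with shNT. Most of the SKM1 sum was S100A9 and S100A8, which were not called there (adjusted p = 0.782 and 0.361 by limma). Most of the MOLM13 sum was TYROBP, which averaged 9069 with shBCAT1 and 5444 with shNT. Of 5 cycling markers, MKI67, TOP2A and MCM2 were lower with shBCAT1 in MOLM13 (summed intensity 2902 to 3864 with shBCAT1 and 4520 to 6542 with shNT). MCM2 was lower in all 3 lines, and MKI67 was higher in HL-60 (log2 difference 0.50 by limma, adjusted p = 0.00369), where the sum was 6283 to 7297 with shBCAT1 and 7090.2 to 7976 with shNT. In SKM1 it was 7185 to 8091 with shBCAT1 and 8162 to 9052 with shNT. Of the lymphoid, erythroid and epithelial markers, CD79A and HBB were called higher in HL-60 (log2 differences 0.25 and 0.33), EPCAM lower in SKM1 (1208 with shBCAT1 and 1473 with shNT) and CD3D lower in MOLM13 (233 with shBCAT1 and 412 with shNT). CD79A and HBB were dim in HL-60. CD79A averaged 150 with shBCAT1 and 126 with shNT, and HBB 117 and 92.8, with overlapping arrays for HBB. CD4 had group means between 132 and 869 and no call. The part of these shifts in the autophagy results was not tested. In bulk RNA, fewer cells in one state and less RNA per cell cannot be told apart.

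The promoters of ATG14 and VMP1 are printed because these genes moved in opposite directions in every line. With shBCAT1, ATG14 was called higher and VMP1 lower in all 3 lines. The ATG14 call in SKM1 and the VMP1 calls in HL-60 and MOLM13 were each lost without some single arrays and under 1 other setting. Each window runs from 250 bases before the annotated start to 50 after it and is taken from RefSeq on GRCh38.p14, 5′ to 3′ on the gene's own strand. The ATG14 window is chr14:55411781-55412080 on the minus strand and the VMP1 window chr17:59707404-59707703 on the plus strand.
ATG14: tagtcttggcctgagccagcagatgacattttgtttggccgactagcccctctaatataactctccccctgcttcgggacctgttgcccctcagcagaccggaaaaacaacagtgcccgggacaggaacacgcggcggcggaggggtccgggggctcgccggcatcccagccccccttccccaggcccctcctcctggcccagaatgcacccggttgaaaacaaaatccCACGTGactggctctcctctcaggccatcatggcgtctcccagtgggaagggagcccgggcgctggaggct
VMP1: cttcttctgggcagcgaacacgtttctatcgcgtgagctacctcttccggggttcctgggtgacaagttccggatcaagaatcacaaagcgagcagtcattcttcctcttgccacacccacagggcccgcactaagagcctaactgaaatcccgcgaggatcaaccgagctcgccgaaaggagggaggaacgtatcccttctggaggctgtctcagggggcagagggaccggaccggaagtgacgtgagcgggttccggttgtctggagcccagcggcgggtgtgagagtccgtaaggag
Capitals mark the E-box CACGTG, a palindrome bound by TFEB and TFE3 among many other factors, which begins 21 bases before the start of ATG14. The windows were searched on both strands for this E-box, for the forkhead motif GTAAACA and for the antioxidant response motif TGACNNNGC, and matches of different motifs may overlap. No match of the 3 lies in the VMP1 window. Of the 40 members, 34 had a window, 42 windows in all. The E-box was in 2 of the 42 (4.76%, in ATG14 and ATG3) and in 7.26% of all 35116 windows of the same length. The forkhead motif was in 1 member window (2.38%, CALCOCO2) and in 3.42% of all windows, and the antioxidant motif in 3 (7.14%, in ATG101, CALCOCO2 and MAP1LC3B) and in 13.3% of all. Each motif was no more frequent among the members than among all windows, and the 3 windows of SQSTM1 held none of the 3.

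The set was chosen with earlier results of these data known, so its shares are not independent of these data. In HL-60, 12 of the 39 tested members were higher with shBCAT1 (30.8%), whereas 10% of all genes tested were. Only 2 were lower (5.13%), with a background of 8.87%. MOLM13 had 11 members higher (28.2%, background 10.3%) and 2 lower (5.13%, background 10.7%). SKM1 had few calls in either direction, 3 higher (7.69%, background 4.67%) and 3 lower (7.69%, background 6.50%). These backgrounds depend on the filter for dim genes. With the filter at the 75th percentile of all probe values, 34 members and 9445 genes were tested. In HL-60, 16.7% of those genes were higher and 14.7% lower with shBCAT1, in SKM1 8.31% and 11%, and in MOLM13 17% and 17.9%. The median difference of the 39 members was 0.11 for HL-60, 0.01 for SKM1 and 0.11 for MOLM13, and that of all genes tested lay between -0.0033 and 0.0015 in the 3 lines. Arrays of the hairpins did not overlap, with shBCAT1 above, for 13 members in HL-60 (33.3%, background 14.5%), 13 in SKM1 (33.3%, background 15.9%) and 14 in MOLM13 (35.9%, background 15.5%). With shBCAT1 below, they did not overlap for 1 member in HL-60 (2.56%, background 13.9%), 7 in SKM1 (17.9%, background 17.4%) and 1 in MOLM13 (2.56%, background 15.5%). For the mean of the 3 lines, 15 members were higher (38.5%, background 13.9%) and 3 lower (7.69%, background 14.1%). The count of members lower was 0 in HL-60 without HL-60 shBCAT1 replicate 1, and 0 in MOLM13 without MOLM13 shBCAT1 replicate 1 or 2 or shNT replicate 2 or 3 (0 to 4 at an unadjusted p under 0.05 by limma). With array weights SKM1 had 5 members higher and 6 lower (8.97% and 11.3% of all genes tested), and fitted alone 6 higher and 6 lower (8.69% and 11% of all genes).

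Most of these changes were small. Among members called higher, the fold ran between 1.21 and 2.08 in HL-60, between 1.24 and 1.47 in SKM1 and between 1.23 and 2.15 in MOLM13. A change of 1.5-fold or more passed the test for SQSTM1 in HL-60 (1 of 39, 2.56%, background 2.59%), for GABARAPL1 and WIPI1 in MOLM13 (5.13%, background 2.17%) and, downwards, for TAX1BP1 in SKM1 (2.56%, background 1.74%). In at least 1 line 22 members passed the test (56.4%, background 35.5%), 14 of them in 1 line, 5 in 2 and 3 in all 3. None was higher in 1 line and lower in another, a pattern that 1.80% of all genes tested showed. Of the 17 tested members called in no line, 11 had every group mean under 200. As the deposited values seem to hold background, folds of such dim genes are understated.

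**Figure D1:**
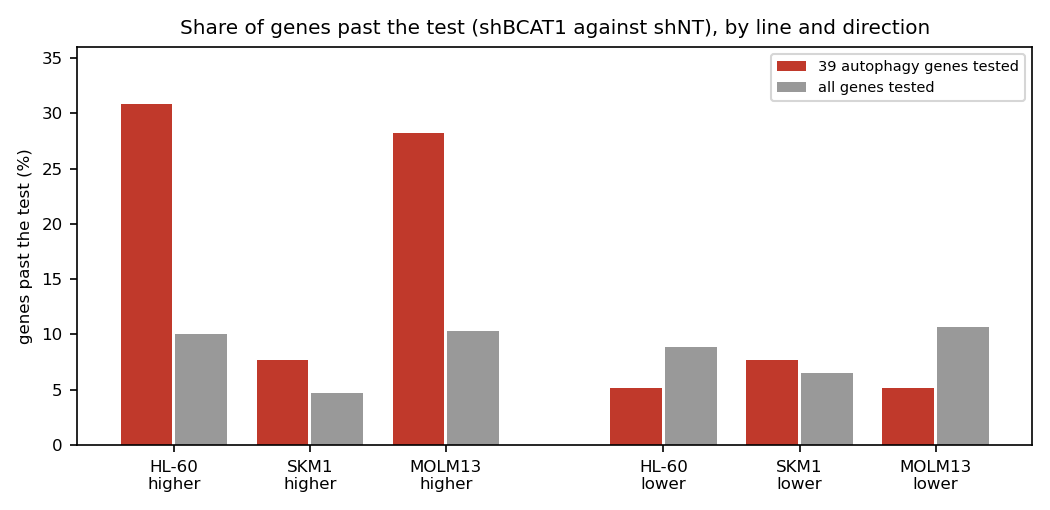
Share of genes past the test in each line (bars, percent, from 0), for the 39 autophagy genes tested (red) and all 15288 genes tested (grey), higher with shBCAT1 on the left and lower on the right. The red bars stand at 30.8% and 28.2% for genes higher in HL-60 and MOLM13, against 10% and 10.3% for all genes, and at 5.13% for genes lower in both.

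The receptor SQSTM1 (p62), which carries ubiquitylated cargo to LC3 and is itself degraded by autophagy, was higher with shBCAT1 in every line. SQSTM1 read 3864, 3869 and 3449.6 in the shBCAT1 arrays, against 2069, 1606 and 1725 in the shNT arrays of HL-60, a 2.08-fold rise (log2 difference 1.06 ± 0.09 (SE), adjusted p = 1.23e-08). In SKM1, SQSTM1 read 2948, 3116 and 3003 in the shBCAT1 arrays, against 2353, 2019 and 2196 in the shNT arrays (1.38-fold, log2 difference 0.47 ± 0.09 (SE), adjusted p = 0.000983). The hairpins' arrays were fully separated in both lines. In MOLM13, SQSTM1 read 5391, 5039 and 4871 in the shBCAT1 arrays, against 4279.7, 3715 and 3857 in the shNT arrays (1.29-fold, log2 difference 0.37 ± 0.09 (SE), adjusted p = 0.00461), again without overlap. The rise was larger in HL-60 than in SKM1 (difference of the log2 differences 0.59 ± 0.13, adjusted p = 0.0056) and than in MOLM13 (MOLM13 minus HL-60 -0.69 ± 0.13, adjusted p = 0.000671).

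No other receptor was called higher. TAX1BP1, which links ubiquitylated protein aggregates to the LC3 family, fell in SKM1, with 1325, 1513 and 1498 in the shBCAT1 arrays, against 2048, 2246 and 2404 in the shNT arrays (1.54-fold lower, log2 difference -0.63 ± 0.10 (SE), adjusted p = 0.000126). The 6 SKM1 arrays of TAX1BP1 were separated by hairpin. In HL-60, TAX1BP1 read 1725, 1426 and 1688 in the shBCAT1 arrays, against 2168, 1902 and 1643 in the shNT arrays (log2 difference -0.24 ± 0.10 (SE), adjusted p = 0.122). For MOLM13, TAX1BP1 values were 1693, 1628 and 1504 in the shBCAT1 arrays, against 1929, 1711 and 1641 in the shNT arrays (log2 difference -0.13 ± 0.10 (SE), adjusted p = 0.451). The hairpins overlapped in both of these lines. A second bright TAX1BP1 probe gave -0.58 in SKM1, -0.23 in HL-60 and -0.01 in MOLM13.

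OPTN, CALCOCO2 and NBR1, which serve in autophagy of bacteria, mitochondria and protein aggregates, gave dim signals and no call. OPTN read 89.3, 86.9 and 76.1 in the shBCAT1 arrays, against 98.1, 83.9 and 87.6 in the shNT arrays of HL-60. In SKM1, OPTN read 82.6, 92.9 and 86.6 in the shBCAT1 arrays, against 75.9, 87.1 and 92.4 in the shNT arrays. These levels are below the median of all probes, apart from a few arrays near it. In MOLM13, OPTN was brighter, at 139, 153 and 138 in the shBCAT1 arrays, against 128, 129 and 140.3 in the shNT arrays (95% interval of the log2 difference -0.07 to 0.30). CALCOCO2 (NDP52) read 116, 124 and 134 in the shBCAT1 arrays, against 122, 111 and 121 in the shNT arrays of HL-60. Its values in SKM1 were 105, 108 and 124 in the shBCAT1 arrays, against 106, 110.1 and 107 in the shNT arrays. The hairpins overlapped in each line, as they also did in MOLM13, where CALCOCO2 read 136, 139 and 154 in the shBCAT1 arrays, against 116, 127 and 149 in the shNT arrays. The 95% intervals of its log2 difference were -0.12 to 0.27 for HL-60, -0.14 to 0.25 for SKM1 and -0.06 to 0.33 for MOLM13. NBR1, a receptor related to SQSTM1, read 86.2, 92.5 and 84.6 in the shBCAT1 arrays, against 99.6, 89.3 and 77.9 in the shNT arrays of HL-60. Its SKM1 arrays gave 74.3, 87.3 and 97.2 in the shBCAT1 arrays, against 82.4, 84.5 and 79.7 in the shNT arrays. Both NBR1 probes stayed near the floor of the arrays. In MOLM13, NBR1 read 90.8, 85.8 and 79.5 in the shBCAT1 arrays, against 86.1, 80.7 and 82.2 in the shNT arrays. Nothing can be said of a change in NBR1 from these probes.

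In the LC3 family, GABARAPL1, GABARAPL2 and MAP1LC3A rose in MOLM13 and GABARAPL1 in HL-60, while MAP1LC3B fell in SKM1. GABARAPL1, a target of FOXO factors in mouse muscle, had the largest fold of all 39 members, in MOLM13, with 631, 636 and 579.8 in the shBCAT1 arrays, against 365, 275 and 233 in the shNT arrays (2.15-fold, log2 difference 1.10 ± 0.12 (SE), adjusted p = 4.93e-07). In HL-60, GABARAPL1 read 521, 448 and 514 in the shBCAT1 arrays, against 401, 314 and 322 in the shNT arrays (1.43-fold, log2 difference 0.52 ± 0.12 (SE), adjusted p = 0.00339). All shBCAT1 arrays lay above all shNT arrays in these lines. In SKM1, where its level was lowest, GABARAPL1 read 169, 202 and 173 in the shBCAT1 arrays, against 173, 154 and 168 in the shNT arrays (log2 difference 0.13 ± 0.12 (SE), adjusted p = 0.655), with overlap. The rise was larger in MOLM13 than in SKM1 (MOLM13 minus SKM1 0.97 ± 0.17, adjusted p = 0.000545) and than in HL-60 (MOLM13 minus HL-60 0.58 ± 0.17, adjusted p = 0.0253).

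GABARAPL2 (GATE-16), which acts late in building the autophagosome, rose in MOLM13, with 2433, 2653 and 2563 in the shBCAT1 arrays, against 2024, 1670.0 and 1542 in the shNT arrays (1.47-fold, log2 difference 0.56 ± 0.11 (SE), adjusted p = 0.000813). Its SKM1 arrays gave 3995, 3918 and 3991 in the shBCAT1 arrays, against 3515, 3610.1 and 3428 in the shNT arrays. They did not overlap, but the difference of 0.17 ± 0.11 missed the test (adjusted p = 0.448). In HL-60, GABARAPL2 read 1515, 1885 and 1283 in the shBCAT1 arrays, against 1301, 1158 and 1467 in the shNT arrays (log2 difference 0.24 ± 0.11 (SE), adjusted p = 0.157), with overlap. A second, dim GABARAPL2 probe (mean intensity 137) differed by 0.06 in MOLM13, so it did not show the rise. GABARAP, the founding member, was dim, with 163, 123 and 125 in the shBCAT1 arrays, against 142, 138 and 139.9 in the shNT arrays of HL-60. Its MOLM13 arrays read 125, 151 and 169 in the shBCAT1 arrays, against 144, 127 and 127 in the shNT arrays. Neither line gave a call. In SKM1, GABARAP read 126, 126 and 143 in the shBCAT1 arrays, against 114, 109 and 121 in the shNT arrays (log2 difference 0.20 ± 0.11 (SE), adjusted p = 0.318), separated but not called.

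MAP1LC3A, another form of LC3, had group means above the probe median in MOLM13 alone, where it rose, with 257, 233 and 236 in the shBCAT1 arrays, against 158, 201 and 185 in the shNT arrays (1.34-fold, log2 difference 0.42 ± 0.09 (SE), adjusted p = 0.00102). In HL-60, MAP1LC3A read 92.0, 82.3 and 86.8 in the shBCAT1 arrays, against 80.9, 89.3 and 94.2 in the shNT arrays. In SKM1, MAP1LC3A read 88.3, 82.3 and 91.8 in the shBCAT1 arrays, against 85.6, 91.1 and 85.1 in the shNT arrays. These values sit near the median of all probes, so no change could be seen there. Averaged with its other 2 probes, both dimmer than the probe median, MAP1LC3A gave 0.11 in MOLM13 (adjusted p = 0.165). MAP1LC3B, the usual marker of autophagosomes at the protein level, was lower in SKM1, with 377, 386 and 471 in the shBCAT1 arrays, against 473, 506 and 560.3 in the shNT arrays (1.25-fold lower, log2 difference -0.32 ± 0.10 (SE), adjusted p = 0.0355). The SKM1 hairpins were separated by a narrow gap. The call was lost without SKM1 shBCAT1 replicate 1 or 2 (adjusted p = 0.187 and 0.151) and without SKM1 shNT replicate 2 or 3 (adjusted p = 0.085 and 0.198). In HL-60, MAP1LC3B read 269.6, 265 and 272 in the shBCAT1 arrays, against 279, 245 and 273 in the shNT arrays (log2 difference 0.02 ± 0.10 (SE), adjusted p = 0.928). Its MOLM13 values were 306, 309 and 356 in the shBCAT1 arrays, against 328, 313 and 391 in the shNT arrays (log2 difference -0.09 ± 0.10 (SE), adjusted p = 0.642). The hairpins overlapped in both lines.

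**Figure D2:**
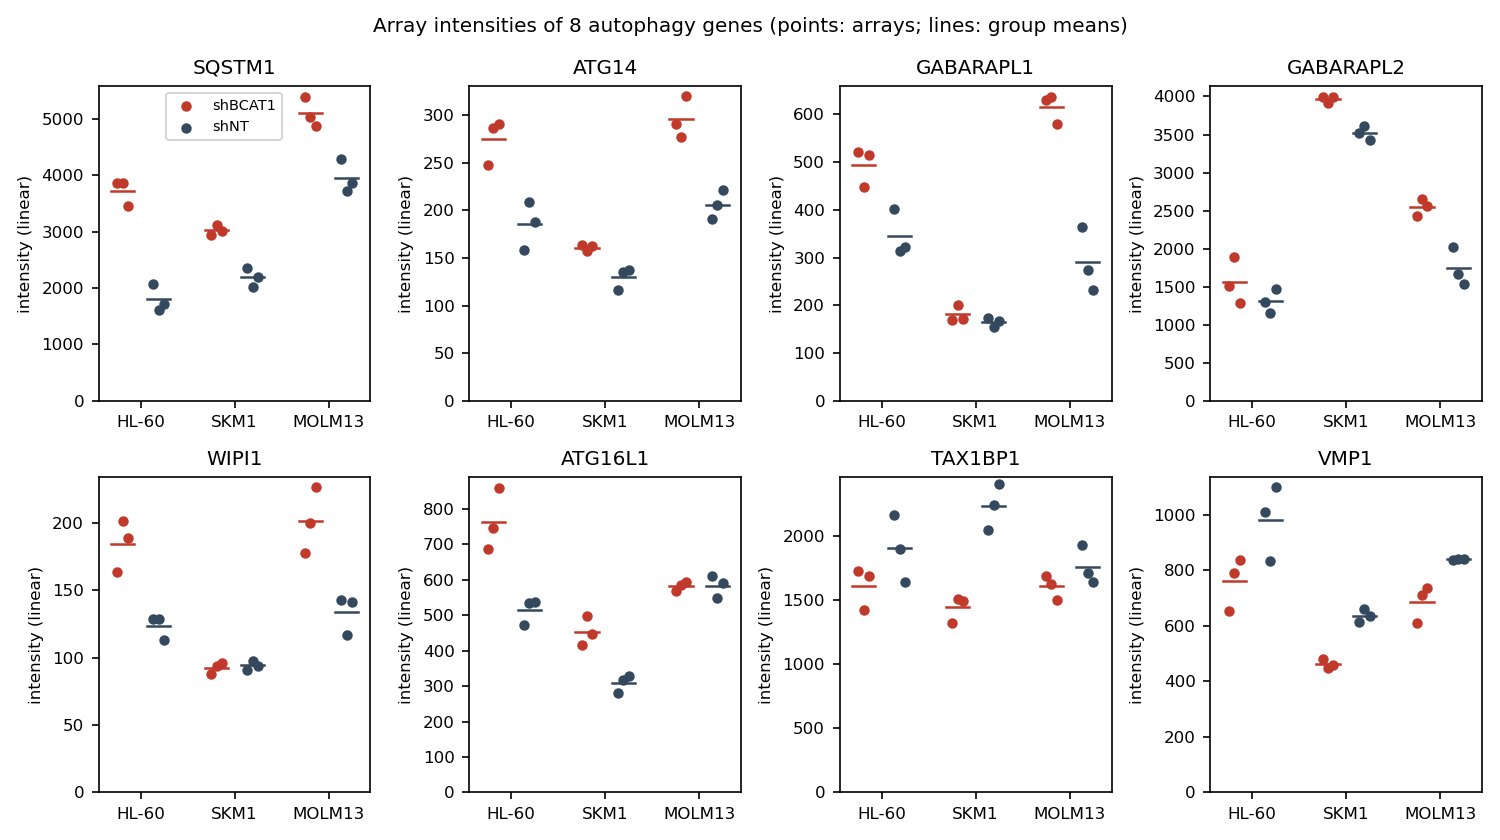
Array intensities (linear scale from 0, arbitrary units) of 8 autophagy genes in the 3 lines, with shBCAT1 (red) left of shNT (blue), a point for each array and a line at each group mean. The shBCAT1 points of SQSTM1 and ATG14 lie above the shNT points in every line, those of WIPI1 and GABARAPL1 in HL-60 and MOLM13, and those of TAX1BP1 lie below in SKM1.

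In the lipid kinase complex, ATG14, the subunit that brings it to sites of autophagosome formation, rose in all 3 lines, BECN1 rose in MOLM13 and UVRAG fell in HL-60. ATG14 read 248, 287 and 291 in the shBCAT1 arrays, against 158, 209 and 188 in the shNT arrays of HL-60 (1.49-fold, log2 difference 0.58 ± 0.10 (SE), adjusted p = 0.00013). In MOLM13, ATG14 read 291, 277 and 320.4 in the shBCAT1 arrays, against 191, 206 and 222 in the shNT arrays (1.44-fold, log2 difference 0.52 ± 0.10 (SE), adjusted p = 0.000359). The hairpins did not overlap in either line. In SKM1, ATG14 read 163, 157 and 162 in the shBCAT1 arrays, against 117, 135 and 138 in the shNT arrays, also without overlap (1.24-fold, log2 difference 0.31 ± 0.10 (SE), adjusted p = 0.0402). That SKM1 call was lost without any of the 6 SKM1 arrays, with adjusted p between 0.0522 (without shNT replicate 3) and 0.226 (without shNT replicate 1). It was also lost with limma-trend (adjusted p = 0.0512). The F test of a difference of the response between lines was not passed for ATG14 (adjusted p = 0.369). ATG14 and SQSTM1 were the only members higher in all 3 lines (5.13%, background 1.31%).

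BECN1, the scaffold of the complex, rose in MOLM13, averaging 779 ± 90.6 with shBCAT1 and 566 ± 31 with shNT (SD, n = 3 each, log2 difference 0.46 ± 0.09 (SE), adjusted p = 0.000669). In HL-60 its difference was 0.12 ± 0.09 (adjusted p = 0.425) and in SKM1 -0.04 ± 0.09 (adjusted p = 0.905), and the rise in MOLM13 exceeded that in SKM1 (MOLM13 minus SKM1 0.49 ± 0.13, adjusted p = 0.0141). UVRAG, which takes the place of ATG14 in the endosomal form of the complex, fell in HL-60, averaging 258 ± 18.8 with shBCAT1 and 302 ± 7.54 with shNT (log2 difference -0.23 ± 0.07 (SE), adjusted p = 0.032). That call was lost without HL-60 shBCAT1 replicate 1 or 2 (adjusted p = 0.157 and 0.0615) and without HL-60 shNT replicate 2 or 3 (adjusted p = 0.0925 and 0.0733), and a second, dimmer UVRAG probe differed by 0.04 there. In SKM1 UVRAG had a like difference, -0.22 ± 0.07, that missed the test (adjusted p = 0.0581), and in MOLM13 it was 0.11 ± 0.07 (adjusted p = 0.344). The catalytic subunit PIK3C3, its partner PIK3R4 and the BECN1 regulator AMBRA1 gave no call in any line, with group means between 101 and 185.

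Of the 5 members of the initiating complex, ULK1 and ATG101 rose in HL-60 and ULK1 in MOLM13. ULK1, its kinase, averaged 894 ± 77.1 with shBCAT1 and 690.5 ± 32.7 with shNT in HL-60 (SD, n = 3 each, 1.29-fold, log2 difference 0.37 ± 0.09 (SE), adjusted p = 0.00355). In MOLM13 it averaged 1517 ± 140 with shBCAT1 and 1231 ± 22 with shNT (1.23-fold, log2 difference 0.30 ± 0.09 (SE), adjusted p = 0.0167). The MOLM13 call was lost without MOLM13 shBCAT1 replicate 1 (adjusted p = 0.112), without MOLM13 shNT replicate 2 (adjusted p = 0.052) and with the mean of its probes (adjusted p = 0.094). In SKM1 ULK1 averaged 550.3 ± 57.1 with shBCAT1 and 552 ± 21.2 with shNT (log2 difference -0.01 ± 0.09 (SE), adjusted p = 0.982, 95% interval -0.19 to 0.17). A second ULK1 probe gave 0.30 for HL-60, -0.13 for SKM1 and 0.27 for MOLM13. ATG101, which stabilises ATG13, averaged 950.3 ± 33.8 with shBCAT1 and 761 ± 52.6 with shNT in HL-60 (1.25-fold, log2 difference 0.32 ± 0.08 (SE), adjusted p = 0.00756). RB1CC1 (FIP200), the scaffold of the complex, was called in no line, but over the mean of the lines it fell by 0.23 on the log2 scale (adjusted p = 0.0346). That call was lost when any of 9 arrays was left out, 3 of HL-60 (shBCAT1 replicate 1, shNT replicates 1 and 2), 3 of SKM1 (shBCAT1 replicate 2, shNT replicates 2 and 3) and 3 of MOLM13 (shBCAT1 replicates 1 and 2, shNT replicate 3), with adjusted p between 0.0631 and 0.0857. ULK2 and ATG13 were dim and gave no call.

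Of the membrane-supply genes, WIPI1 and WIPI2 rose in HL-60 and MOLM13, ATG2A rose in HL-60 and VMP1 fell in all 3 lines. WIPI1, which binds phosphatidylinositol 3-phosphate on the forming membrane, read 163, 201 and 189 in the shBCAT1 arrays, against 129, 129 and 113 in the shNT arrays of HL-60 (1.49-fold, log2 difference 0.57 ± 0.10 (SE), adjusted p = 0.00015). In MOLM13, WIPI1 read 177, 200.0 and 227 in the shBCAT1 arrays, against 143, 117 and 141 in the shNT arrays (1.51-fold, log2 difference 0.59 ± 0.10 (SE), adjusted p = 9.86e-05). All shBCAT1 arrays were above all shNT arrays in these lines. In SKM1, WIPI1 read 88.0, 93.7 and 95.7 in the shBCAT1 arrays, against 90.6, 97.8 and 94.2 in the shNT arrays (log2 difference -0.03 ± 0.10 (SE), adjusted p = 0.939), near the median of all probes and overlapping. The response in SKM1 was smaller than in HL-60 (HL-60 minus SKM1 0.60 ± 0.14, adjusted p = 0.00946) and than in MOLM13 (MOLM13 minus SKM1 0.62 ± 0.14, adjusted p = 0.00491). WIPI2, which recruits ATG16L1 to that lipid, averaged 556 ± 37.7 with shBCAT1 and 401 ± 56.3 with shNT in HL-60 (1.39-fold, log2 difference 0.48 ± 0.10 (SE), adjusted p = 0.00115). Its means in MOLM13 were 357 ± 46.4 with shBCAT1 and 240.1 ± 17.3 with shNT (1.48-fold, log2 difference 0.57 ± 0.10 (SE), adjusted p = 0.000182). In SKM1 the 3 shBCAT1 arrays of WIPI2 also lay above the shNT arrays, but the difference of 0.21 ± 0.10 missed the test (adjusted p = 0.237), and its response was not shown to differ between lines (adjusted p = 0.172).

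VMP1, an endoplasmic reticulum scramblase needed to build the membrane, was lower with shBCAT1 in all 3 lines, alone among the members (2.56%, background 1.60%). VMP1 read 480.0, 449 and 457 in the shBCAT1 arrays, against 613, 659 and 636 in the shNT arrays of SKM1 (1.38-fold lower, log2 difference -0.46 ± 0.10 (SE), adjusted p = 0.00259). In MOLM13, VMP1 read 611, 709.9 and 737 in the shBCAT1 arrays, against 837, 841 and 842 in the shNT arrays (1.23-fold lower, log2 difference -0.30 ± 0.10 (SE), adjusted p = 0.037). The hairpins were separated in these lines. In HL-60, VMP1 read 653, 790.0 and 837 in the shBCAT1 arrays, against 1009, 832 and 1101 in the shNT arrays (1.29-fold lower, log2 difference -0.37 ± 0.10 (SE), adjusted p = 0.0107), with 1 shNT array within the shBCAT1 range. The HL-60 call was lost without HL-60 shBCAT1 replicate 1 or shNT replicate 3 (adjusted p = 0.0939 and 0.0829) and with HL-60 fitted alone (adjusted p = 0.0664 by limma). The MOLM13 call was lost without shBCAT1 replicate 1 or 2 (adjusted p = 0.2 and 0.0541) and without shNT replicate 1, 2 or 3 (adjusted p = 0.0609, 0.0922 and 0.0842). It was also lost with normexp background (adjusted p = 0.0501 by limma). ATG2A, a lipid-transfer protein, rose in HL-60, averaging 408 ± 45.9 with shBCAT1 and 299 ± 23.7 with shNT (1.36-fold, log2 difference 0.45 ± 0.10 (SE), adjusted p = 0.00295), with differences of -0.00015 ± 0.10 in SKM1 and 0.07 ± 0.10 in MOLM13. ATG9A, the scramblase carried on vesicles, differed by 0.24 ± 0.11 in HL-60 (adjusted p = 0.12) and its second probe by 0.34. ATG2B, the paralog of ATG2A, was at the median of all probes.

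**Figure D3:**
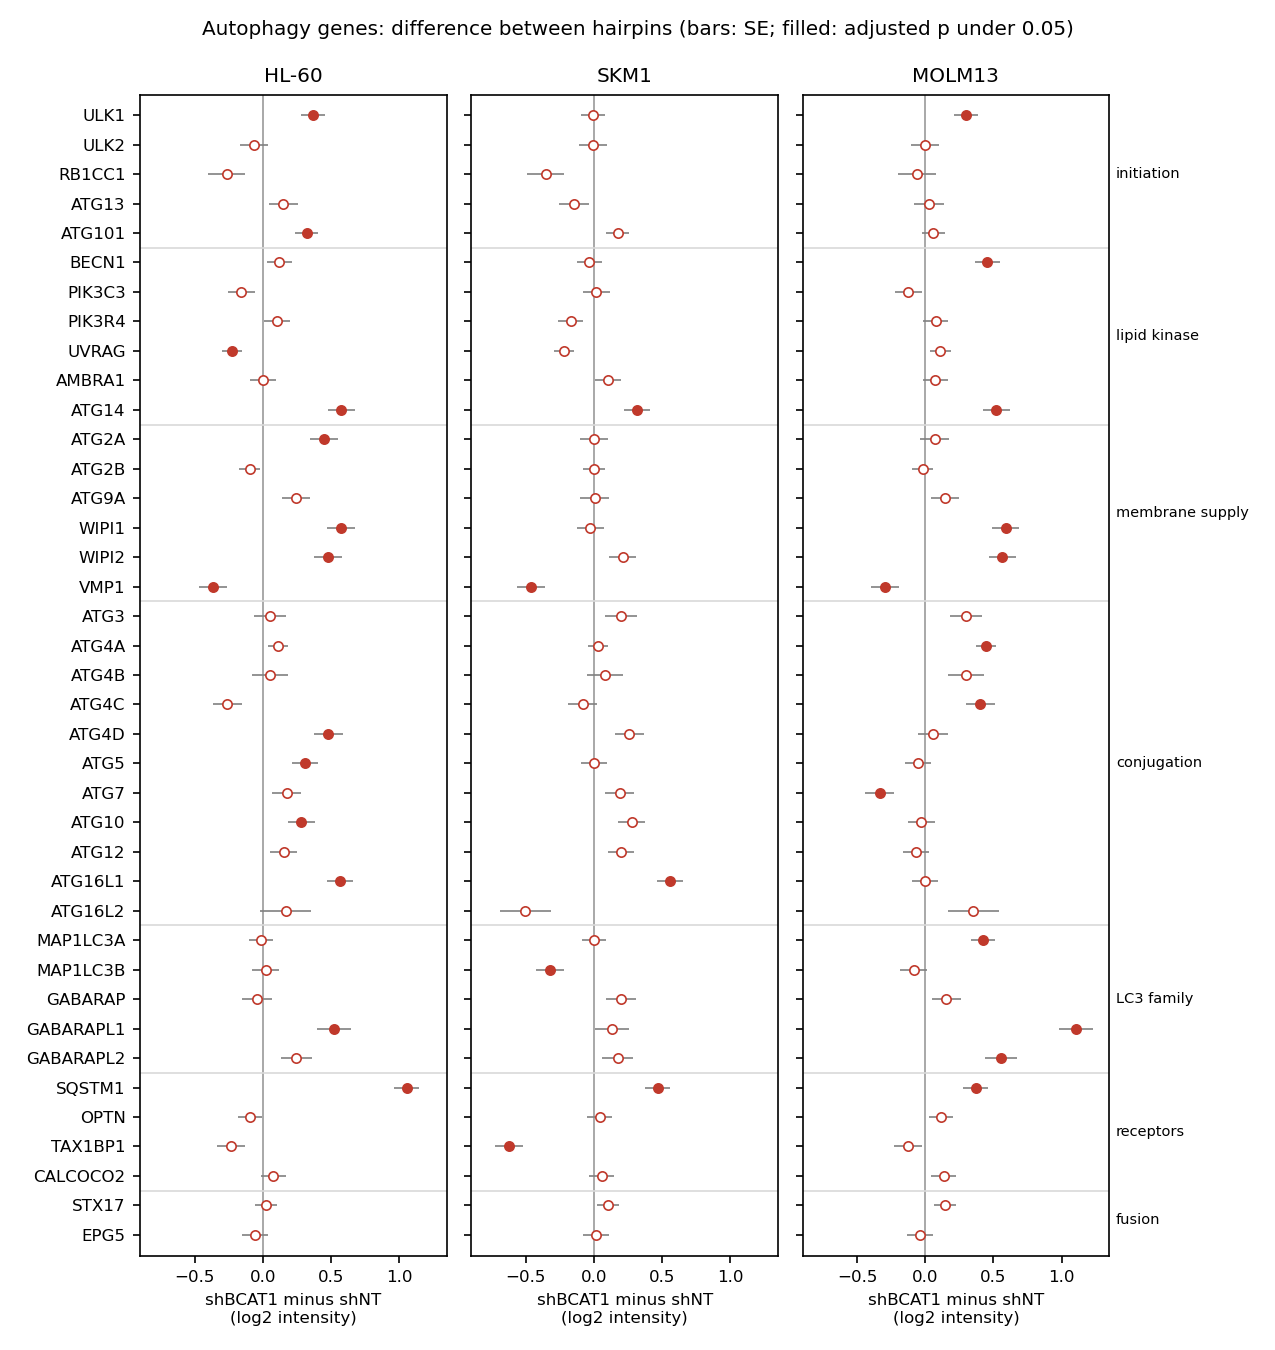
Difference between hairpins (shBCAT1 minus shNT, log2 intensity) of the 39 tested members in HL-60, SKM1 and MOLM13, ordered by role from initiation at the top to fusion at the bottom, with bars for the SE and filled points where the adjusted p was under 0.05. Filled points lie mainly on the right in HL-60 (12 of 14) and MOLM13 (11 of 13) and are split 3 and 3 in SKM1.

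Among the conjugation enzymes, 4 of 11 rose in HL-60 and none fell, where 10% of all genes tested were higher and 8.87% lower. ATG16L1, which places the conjugation site on the membrane, averaged 765 ± 88 with shBCAT1 and 515 ± 36.6 with shNT in HL-60 (1.48-fold, log2 difference 0.57 ± 0.09 (SE), adjusted p = 7.14e-05) and was the only conjugation gene called in SKM1, at 454 ± 40.8 with shBCAT1 and 309 ± 25.9 with shNT (1.47-fold, log2 difference 0.56 ± 0.09 (SE), adjusted p = 0.000155). In MOLM13 it averaged 582 ± 12.4 with shBCAT1 and 584 ± 31.8 with shNT (log2 difference -0.0027 ± 0.09 (SE), adjusted p = 0.992, 95% interval -0.19 to 0.19), below both other responses (MOLM13 minus HL-60 -0.57 ± 0.13, adjusted p = 0.00388, and MOLM13 minus SKM1 -0.56 ± 0.13, adjusted p = 0.00587). A second ATG16L1 probe gave 0.47 for HL-60, 0.55 for SKM1 and -0.04 for MOLM13. ATG4D, a protease of the LC3 family, averaged 173 ± 26.5 with shBCAT1 and 124 ± 13.7 with shNT in HL-60 (1.39-fold, log2 difference 0.48 ± 0.11 (SE), adjusted p = 0.00217), while its second probe differed by 0.08.

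ATG5, which is joined to ATG12, averaged 176 ± 10.8 with shBCAT1 and 143 ± 22 with shNT in HL-60 (1.24-fold, log2 difference 0.31 ± 0.10 (SE), adjusted p = 0.0238). The ATG5 call was lost without HL-60 shBCAT1 replicate 1 or 2 (adjusted p = 0.0973 and 0.0613) or shNT replicate 3 (adjusted p = 0.2). ATG10, the enzyme that joins ATG12 to ATG5, stood at the threshold in HL-60 (log2 difference 0.28 ± 0.10 (SE), adjusted p = 0.0499). It was lost without HL-60 shBCAT1 replicate 1 or 3, HL-60 shNT replicate 1 or 2, or any of 10 arrays of the other lines, with adjusted p between 0.0518 and 0.281, and its second probe moved the other way, by -0.24. The ATG10 call was also lost under 7 other settings, among them the mean of its probes, which differed by 0.02 (adjusted p = 0.893 by limma). ATG12 itself gave no call in any line.

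In MOLM13, ATG4A and ATG4C, proteases that cut the LC3 family, rose and ATG7 fell. ATG4A averaged 276 ± 11.7 with shBCAT1 and 203 ± 6.33 with shNT in MOLM13 (1.36-fold, log2 difference 0.45 ± 0.07 (SE), adjusted p = 5.9e-05), and its second bright probe rose by 0.49. The ATG4A response in MOLM13 exceeded that in HL-60 (MOLM13 minus HL-60 0.34 ± 0.10, adjusted p = 0.0265) and that in SKM1 (MOLM13 minus SKM1 0.42 ± 0.10, adjusted p = 0.00825). ATG4C averaged 399 ± 23.3 with shBCAT1 and 302 ± 28.5 with shNT in MOLM13 (1.32-fold, log2 difference 0.40 ± 0.11 (SE), adjusted p = 0.00801), a call lost without MOLM13 shNT replicate 2 (adjusted p = 0.0521). Averaged with a second probe below the probe median, which gave -0.18, ATG4C differed by 0.11 in MOLM13 (adjusted p = 0.443), and its difference of response between lines was not called (adjusted p = 0.377). In HL-60 ATG4C differed by -0.26 ± 0.11 (adjusted p = 0.0995), and the difference between these lines passed the test (MOLM13 minus HL-60 0.67 ± 0.15, adjusted p = 0.00379). ATG7, the activating enzyme of the cascade, was lower in MOLM13, averaging 741 ± 114 with shBCAT1 and 930.4 ± 92.3 with shNT (1.26-fold lower, log2 difference -0.34 ± 0.11 (SE), adjusted p = 0.025), with overlapping arrays. The ATG7 call was lost without MOLM13 shBCAT1 replicate 1 or 2 (adjusted p = 0.189 and 0.0538) and without MOLM13 shNT replicate 2 or 3 (adjusted p = 0.107 and 0.106). ATG7 differed by 0.18 ± 0.11 in HL-60 and 0.19 ± 0.11 in SKM1, and MOLM13 was below both (MOLM13 minus HL-60 -0.51 ± 0.15, adjusted p = 0.0226, and MOLM13 minus SKM1 -0.52 ± 0.15, adjusted p = 0.0251).

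Same-numbered MOLM13 arrays deviated together, and a fit with the replicate number as a block called 2 more members in that line. ATG3, the enzyme that transfers LC3 to lipid, differed by 0.30 ± 0.12 in MOLM13, with adjusted p = 0.0771 without the block and 0.027 with it. ATG4B, the main LC3 protease, differed by 0.30 ± 0.13, with adjusted p = 0.122 without the block and 0.00994 with it. With the block, MOLM13 had 13 members higher and 2 lower, while 11.3% of all genes tested were higher and 11.6% lower. ATG16L2, a paralog of ATG16L1, had its widest spread in HL-60, where shBCAT1 replicate 3 read 628 and the others 310.2 and 315. It differed by -0.51 ± 0.19 in SKM1 (adjusted p = 0.0903) and 0.35 ± 0.19 in MOLM13 (adjusted p = 0.208). STX17, which brings the closed autophagosome to the lysosome, and EPG5, a tether for that step, had group means between 91.5 and 116 and no call.

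The size of the response differed between lines for 12 members by the F test (30.8%, background 18%). They are SQSTM1, GABARAPL1, WIPI1, ATG16L1, ATG4C, ATG4A, ATG7, MAP1LC3A, BECN1, UVRAG, TAX1BP1 and ATG16L2. The count was 6 without MOLM13 shBCAT1 replicate 1, and 8 without MOLM13 shBCAT1 replicate 2, shNT replicate 2 or shNT replicate 3. For SQSTM1, GABARAPL1, WIPI1 and ATG16L1 it was called under every setting run. For ATG16L2 it was lost without any of 13 arrays and under 4 other settings (adjusted p between 0.0505 and 0.145). In HL-60 and MOLM13 together 6 members were higher, ULK1, ATG14, WIPI1, WIPI2, GABARAPL1 and SQSTM1 (15.4%, background 3.34%). The median SD of log2 values over all genes was smaller in the SKM1 groups, at 0.0714 to 0.0759, than in the others, at 0.0993 to 0.107.

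With the control hairpin the lines already differed in 29 members (74.4%, background 61.4%). Of these, 12 were highest in MOLM13, 10 in SKM1 and 7 in HL-60, and 14 were lowest in SKM1. For 9 members both steps of the order passed the test, and for 7 the highest line was 2-fold or more above the lowest. RB1CC1 had the widest range, at 645 ± 109 in MOLM13, 382 ± 34.1 in SKM1 and 197 ± 39.4 in HL-60 (SD, n = 3 each), 3.29-fold between the ends. GABARAPL2 was highest in SKM1, at 3518 ± 91.1, followed by 1745 ± 250 in MOLM13 and 1309 ± 155 in HL-60. SQSTM1 averaged 3951 ± 294 in MOLM13, 2189 ± 167 in SKM1 and 1800.2 ± 241 in HL-60. All steps passed for these 3 genes. ATG101 was highest in HL-60 (761 ± 52.6), then MOLM13 (493 ± 27.3) and SKM1 (327 ± 13.4), and ULK1 was highest in MOLM13 (1231 ± 22), then HL-60 (690.5 ± 32.7) and SKM1 (552 ± 21.2). GABARAPL1 averaged 346 ± 48.2 in HL-60, 291 ± 67.4 in MOLM13 and 165 ± 9.91 in SKM1, and HL-60 and MOLM13 did not differ beyond their spread. HL-60 was grown with less serum than the other lines, so in comparisons with HL-60 the line and the serum cannot be told apart. SKM1 and MOLM13 had the same serum share, and between them 11 members were higher in SKM1 (28.2%, background 25.8%) and 15 in MOLM13 (38.5%, background 21.9%).

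**Figure D4:**
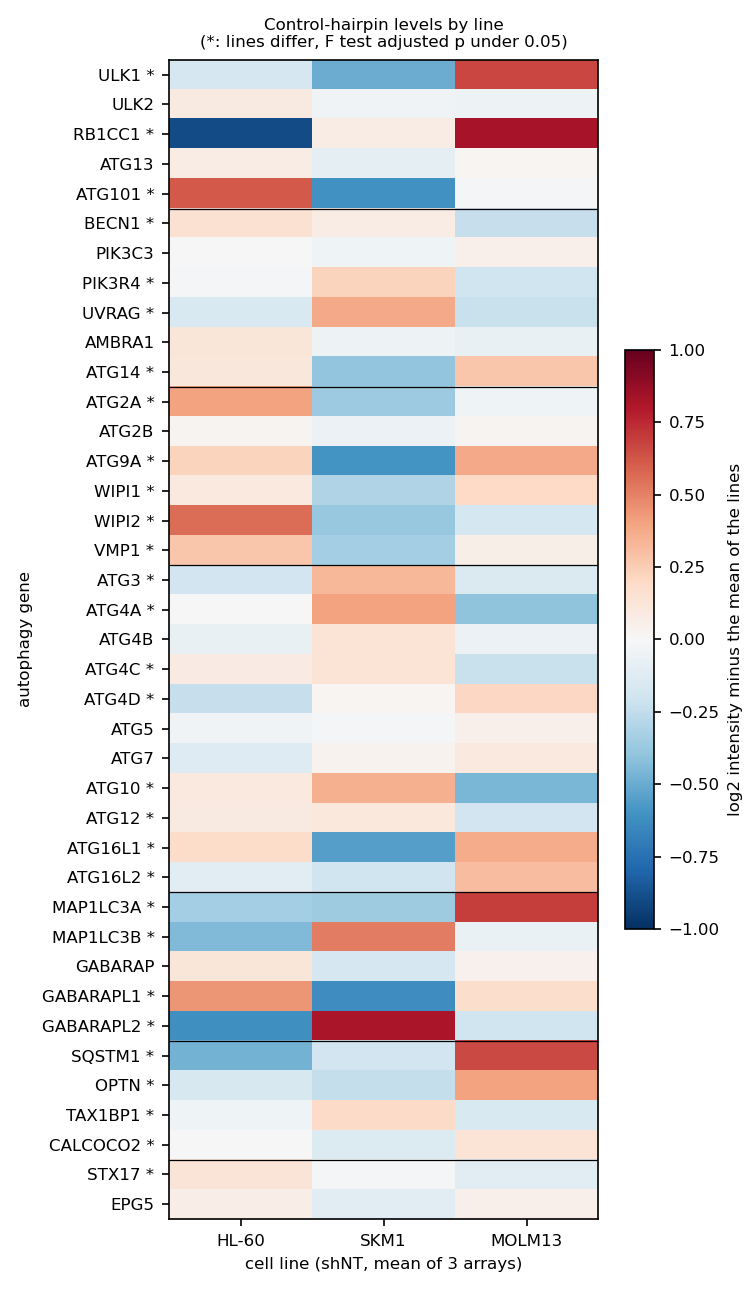
Level of the 39 tested members with shNT in each line, as log2 intensity minus the mean of the 3 lines (red above, blue below), a row for each gene by role. Asterisks mark the 29 genes whose lines differ by the F test, with SKM1 the lowest line for 14 of them and MOLM13 the highest for 12.

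Other genes of the pathway were counted from lists of their own, to be read against the shares of all genes tested (10% higher and 8.87% lower in HL-60, 4.67% and 6.5% in SKM1, 10.3% and 10.7% in MOLM13). Of 21 tested core and fusion genes outside the 40, 5 rose and 1 fell in HL-60, none rose and 1 fell in SKM1, and 5 rose and 1 fell in MOLM13. WDR45 (WIPI4), a partner of ATG2 proteins, rose 1.32-fold in HL-60 (log2 difference 0.40 ± 0.08 (SE), adjusted p = 0.000575) and 1.27-fold in MOLM13 (log2 difference 0.35 ± 0.08 (SE), adjusted p = 0.0019). SNAP29, which pairs with STX17 in fusion, rose 1.48-fold in MOLM13 (log2 difference 0.57 ± 0.12 (SE), adjusted p = 0.00136). ZFYVE1 (DFCP1), a marker of the nascent membrane, rose 1.38-fold in MOLM13 (log2 difference 0.47 ± 0.11 (SE), adjusted p = 0.00293), and TECPR1, an autophagosome tether, 1.3-fold in HL-60 (log2 difference 0.38 ± 0.09 (SE), adjusted p = 0.00251). In MOLM13 TECPR1 differed by 0.23 ± 0.09, with adjusted p = 0.073 without the replicate block and 0.0466 with it. In SKM1 the differences of these 4 lay between -0.01 and 0.33, none called. The medians of the list were 0.08 for HL-60, 0.03 for SKM1 and 0.16 for MOLM13.

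Among 18 receptors for mitochondria and endoplasmic reticulum, no common direction was seen, with 3 higher and 1 lower in HL-60, 2 higher and 4 lower in SKM1, and 4 higher and 4 lower in MOLM13. BNIP3, a mitochondrial receptor induced under hypoxia, was lower in each line. BNIP3 averaged 1145 ± 153 with shBCAT1 and 3857 ± 1285 with shNT in MOLM13 (3.24-fold lower, log2 difference -1.70 ± 0.19 (SE), adjusted p = 3.91e-07), and differed by -1.32 ± 0.19 in SKM1 (adjusted p = 1.95e-05) and by -0.89 ± 0.19 in HL-60 (adjusted p = 0.00108). CCPG1, a receptor for endoplasmic reticulum, rose in SKM1, averaging 1026 ± 29 with shBCAT1 and 509 ± 37.3 with shNT (2.02-fold, log2 difference 1.01 ± 0.08 (SE), adjusted p = 2.31e-09), and 1.58-fold in MOLM13 (log2 difference 0.66 ± 0.08 (SE), adjusted p = 1.22e-06). ATL3, a receptor for tubular endoplasmic reticulum, rose 1.47-fold in HL-60 (log2 difference 0.56 ± 0.09 (SE), adjusted p = 8.43e-05) and was 1.33-fold lower in MOLM13 (log2 difference -0.41 ± 0.09 (SE), adjusted p = 0.00182), and PINK1, the kinase that flags damaged mitochondria, was 1.34-fold lower in SKM1 (log2 difference -0.42 ± 0.08 (SE), adjusted p = 0.000632).

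Of 19 tested regulators, 3 rose and 4 fell in HL-60, 1 rose and 3 fell in SKM1, and 5 rose and 5 fell in MOLM13. FOXO3, a transcription factor that activates autophagy genes in mouse muscle, was lower in all 3 lines, with differences of -0.72 ± 0.09 for HL-60, -0.54 ± 0.09 for SKM1 and -0.46 ± 0.09 for MOLM13 (adjusted p = 3.59e-06, 0.000223 and 0.000619). PRKAA1, a catalytic subunit of the energy-sensing kinase AMPK, was lower too, with differences of -0.48 ± 0.08 for HL-60, -0.88 ± 0.08 for SKM1 and -0.64 ± 0.08 for MOLM13 (adjusted p = 7.13e-05, 1.95e-08 and 1.54e-06). Both fell in all 3 lines, as did 1.60% of all genes tested, but they were named for their small adjusted p in these data. MLST8, a subunit of the mTOR complexes that restrain autophagy, fell 1.79-fold in HL-60 (log2 difference -0.84 ± 0.09 (SE), adjusted p = 2.44e-07) and 1.19-fold in MOLM13 (log2 difference -0.25 ± 0.09 (SE), adjusted p = 0.0479). The MOLM13 call of MLST8 was lost with the replicate block (adjusted p = 0.0628) and without any of 12 arrays, among them MOLM13 shBCAT1 replicates 1 and 2, MOLM13 shNT replicates 2 and 3, HL-60 shBCAT1 replicate 3, HL-60 shNT replicate 3 and the 6 SKM1 arrays (adjusted p between 0.0501 and 0.158). It was also lost with quantile normalization, normexp background, no filter on dim genes, limma-trend and MOLM13 fitted alone (adjusted p between 0.0527 and 0.0647). TP53INP1, a p53 target that binds the LC3 family, averaged 1214 ± 169 with shBCAT1 and 407 ± 137 with shNT in MOLM13 (3.07-fold, log2 difference 1.62 ± 0.14 (SE), adjusted p = 1.29e-08), and differed by -0.07 ± 0.14 in HL-60 and 0.11 ± 0.14 in SKM1. TFE3 was named after its values were seen, and not by the rule used for the other genes of the list. It rose in all 3 lines, by 0.38 ± 0.09 for HL-60, 0.36 ± 0.09 for SKM1 and 0.30 ± 0.09 for MOLM13 (adjusted p = 0.00411, 0.0121 and 0.0213). Of all genes tested, 1.31% were called higher in all 3 lines. The SKM1 call of TFE3 was lost without SKM1 shBCAT1 replicate 1 or shNT replicate 1 (adjusted p = 0.0748 and 0.0526), and the MOLM13 call without MOLM13 shBCAT1 replicate 1 or 3 or shNT replicate 1 or 2 (adjusted p between 0.0651 and 0.107).

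**Figure D5:**
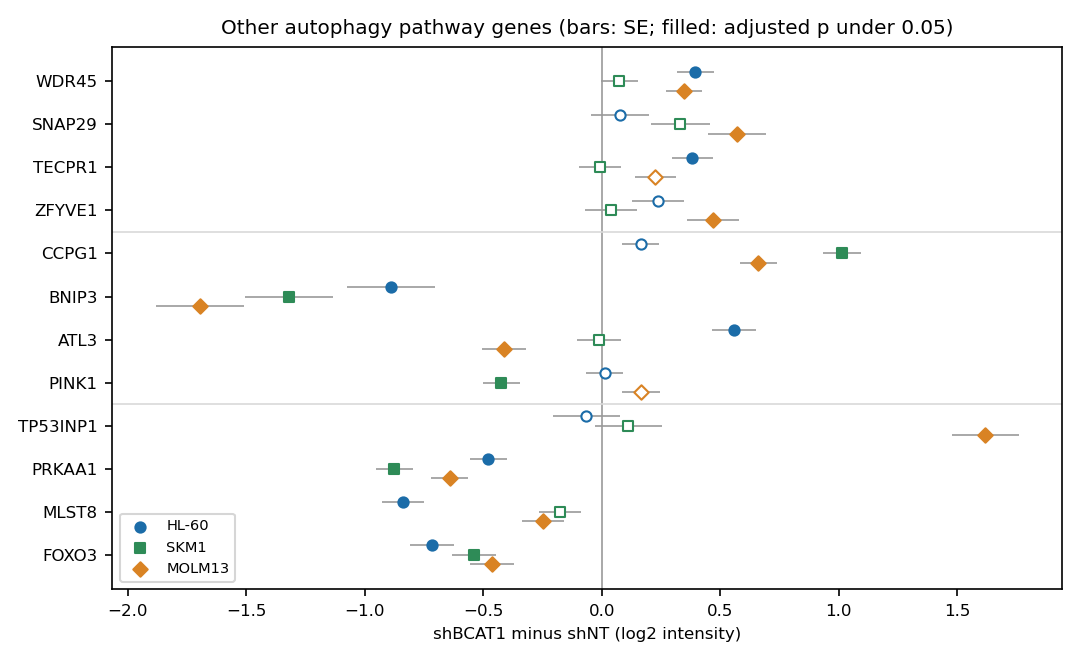
Difference between hairpins (shBCAT1 minus shNT, log2 intensity) of 12 other pathway genes in HL-60 (circles), SKM1 (squares) and MOLM13 (diamonds), with bars for the SE and filled marks where the adjusted p was under 0.05. The upper block holds core and fusion genes, the middle block receptors and the lower block regulators, and BNIP3, PRKAA1 and FOXO3 lie left of 0 with filled marks in all 3 lines.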

How the data were processed

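Total RNA (200 ng) was amplified, labelled with biotin and hybridised to 1-colour Illumina BeadChips, per the labels' protocols. The deposited table gives linear probe intensity, and whether the authors normalized it between arrays is not given in the sources used here. Over the arrays, the 25th, 50th, 75th, 90th and 99th percentiles ranged by 0.0326 to 0.0794 on the log2 scale. The scanner software and the detection calls are not given in the sources used here. The lowest value is 60.4 and the median 92.1, so background seems not to have been subtracted. The number of arrays limits the precision.

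Of 48107 probes, 30113 have 1 symbol in GEO's platform annotation, 8 several and 17986 are unnamed here. The table misses 15 values, and 4 genes with a missing value were left out. Each gene was read from its brightest probe, and 17 members had several. A gene was tested when its brightest group's mean log2 value was above the median probe value, and 4754 dim genes were left out. A limma 3.58.1 fit (R 4.3.3) on log2 intensity had 6 group means, 12 residual and 10.8 prior degrees of freedom. F tests compared responses, and shNT levels, between lines. The fit was also run on simulated data with independent noise and an equal SD in every group, where only the HL-60 response was scored. The simulation held neither the smaller spread of SKM1 nor the shared deviations of MOLM13 arrays. It therefore cannot vouch for calls in those lines.

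The members and lists were chosen with earlier results of these data known. Values of every array are given for members called at 1.5-fold or more in a line, members called in all lines, the LC3 family and the receptors. For each other list, up to 4 genes with the smallest adjusted p in any line are named. TFE3 is named outside this rule, after its values were seen. Replicate numbers are the labels' own. Deviations of same-numbered arrays from their group means correlated at 0.131 to 0.382 in MOLM13, at 0.0131 to 0.163 in HL-60 and at -0.141 to 0.0407 in SKM1. The labels do not say whether the numbers pair the arrays. Alternatives were quantile normalization, normexp background, 2 other filters, the mean of all probes, array weights, limma-trend, a replicate block, each line alone and leaving out each array. They were run for BCAT1 and the other pathway genes after the data were seen. Promoters are RefSeq's, and plots were made in Python 3.11.15 (matplotlib 3.10.9).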

Additional observations from a re-analysis of the deposited data

Results flagged for a closer look

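For 12 members the difference between shBCAT1 and shNT itself differed between the 3 lines by limma's F test, adjusted over all genes tested. SQSTM1 had the smallest adjusted p, 0.000784, with a log2 difference (± SE) of 1.06 ± 0.09 in HL-60, above the 0.47 ± 0.09 of SKM1 and the 0.37 ± 0.09 of MOLM13. GABARAPL1 followed (adjusted p = 0.000966), with 1.10 ± 0.12 in MOLM13, against 0.52 ± 0.12 in HL-60 and only 0.13 ± 0.12 in SKM1. WIPI1 (adjusted p = 0.00301) rose in HL-60 and MOLM13 and differed by -0.03 ± 0.10 in SKM1. ATG16L1 (adjusted p = 0.00307) rose in HL-60 and SKM1 and differed by -0.0027 ± 0.09 in MOLM13.

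Of the LC3 proteases, ATG4C (adjusted p = 0.00714) differed by 0.40 ± 0.11 in MOLM13 and -0.26 ± 0.11 in HL-60, and ATG4A (adjusted p = 0.00976) by 0.45 ± 0.07 in MOLM13 and 0.11 ± 0.07 in HL-60. ATG7 (adjusted p = 0.0187) went the other way, with -0.34 ± 0.11 in MOLM13 and 0.18 ± 0.11 in HL-60. MAP1LC3A (adjusted p = 0.0196) differed by 0.42 ± 0.09 in MOLM13 and was near the probe median in the other lines. BECN1 (adjusted p = 0.0226) differed by 0.46 ± 0.09 in MOLM13, 0.12 ± 0.09 in HL-60 and by -0.04 ± 0.09 in SKM1, and for UVRAG (adjusted p = 0.0312) the differences were 0.11 ± 0.07 in MOLM13 but -0.23 ± 0.07 in HL-60 and -0.22 ± 0.07 in SKM1. TAX1BP1 (adjusted p = 0.0354) fell in SKM1 (-0.63 ± 0.10) and differed by -0.24 ± 0.10 in HL-60 and -0.13 ± 0.10 in MOLM13. ATG16L2 (adjusted p = 0.0489) had 0.35 ± 0.19 in MOLM13 and -0.51 ± 0.19 in SKM1, neither called in its line. With the mean of all probes of a gene the call was lost for UVRAG, ATG4C, MAP1LC3A, ATG16L2 and ATG4A (adjusted p = 0.869, 0.377, 0.337, 0.0784 and 0.0627). For ATG16L2 it was also lost in 3 other settings and without any of 13 arrays (adjusted p up to 0.145). Leaving out 1 array at a time lost the call in 8 fits for TAX1BP1, 6 for UVRAG, 4 for BECN1, 3 for ATG7 and 2 for MAP1LC3A. It was also lost for TAX1BP1 and UVRAG with normexp background, for UVRAG with limma-trend and for MAP1LC3A with array weights. Groups of 3 arrays are too small for a test of outlying arrays.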

How the results depend on the processing

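No called result changed direction, and of 63 called results of members 40 kept their call under all settings run. Of 28 called results of BCAT1 and the other pathway genes named, for which the alternatives were chosen after seeing the data, 24 did. The exceptions were MLST8 and FOXO3 in MOLM13 (FOXO3 with the mean of all probes, adjusted p = 0.101) and TFE3 in SKM1 and MOLM13 (also with MOLM13 alone, adjusted p = 0.0552). With array weights SKM1 had 5 members higher and 6 lower, and fitted alone 6 higher and 6 lower. Over all genes tested, SKM1 had 1372 higher and 1727 lower with array weights and 1328 higher and 1677 lower fitted alone, against 714 and 993. Fitted alone, HL-60 had 0 members lower by limma (2 at an unadjusted p under 0.05) and MOLM13 1. HL-60 had 1 lower with limma-trend and 1 with the mean of all probes, which also cut the members whose response differs between lines to 7. MOLM13 had 1 lower with normexp background. A replicate block gave 5 lower in SKM1 (3 without it), where RB1CC1 and ATG16L2 were added (adjusted p = 0.0303 and 0.0174). The labels do not say whether the replicate numbers pair the arrays, and same-numbered arrays deviated together less in HL-60 and SKM1 than in MOLM13. With the block no call of a member was lost, ATG3 and ATG4B were added in MOLM13, ATG4B and MAP1LC3B in the mean of the lines and ATG2A by the F test of the response, and in SKM1 SNAP29 was added (adjusted p = 0.0169).

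Leaving out 1 array at a time, members higher numbered 10 to 12 in HL-60, 2 to 4 in SKM1, 9 to 13 in MOLM13 and 12 to 15 in the mean of the lines. Members lower numbered 0 to 2 in HL-60, 2 to 5 in SKM1, 0 to 2 in MOLM13 and 2 to 4 in the mean. HL-60 had 0 lower by limma without HL-60 shBCAT1 replicate 1 (4 at an unadjusted p under 0.05) and 1 without HL-60 shNT replicate 2. MOLM13 had 0 lower by limma without MOLM13 shBCAT1 replicate 1 (0 at an unadjusted p under 0.05), shBCAT1 replicate 2, shNT replicate 2 or shNT replicate 3 (2 each at an unadjusted p under 0.05), and 1 without shNT replicate 1. SKM1 had 5 lower without HL-60 shBCAT1 replicate 3. Members whose response differs numbered 6 to 14, and those that differ with shNT 24 to 30. A filter at the 75th percentile of all probe values left 34 members tested, and the others have no value there. The median of all genes moved by less than 0.01 under each setting. Dim members, near the median of all probes, could hide changes that the arrays cannot show. The cause of these changes was not tested.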
